A study of Homo sapiens with 15 samples.

Results

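The change between the 2 times of THZ1 treatment was examined gene by gene, as 3 libraries of cells kept in THZ1 for 24 h against 3 libraries kept in it for 4 h, which are 6 of the 15 libraries in the series. The libraries were chosen by their labels alone. The cells were PATU-8988T, an established human pancreatic cancer line, and total RNA was sequenced. THZ1 was given at 100 nM for 24 h or for 4 h, YKL-5-124 at 100 nM for 24 h or for 4 h, and DMSO cells received 0.1% DMSO, with 3 libraries in each of the 5 groups. The labels give the DMSO libraries no time, so DMSO cannot separate hours in THZ1 from hours in culture. These libraries served only as the vehicle level of each gene, and YKL-5-124 only to ask whether its own change between the times differed. Nothing in the labels says that the 3 libraries of a group came from separate cultures, so the p-values measure the spread between these libraries, which may be technical.

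CDK7 is a kinase carried by TFIIH, a factor needed to start transcription. It phosphorylates the tail of RNA polymerase II as transcription starts and, with cyclin H and MNAT1, activates the cyclin-dependent kinases that drive the cell cycle. THZ1 is a covalent inhibitor of CDK7 that also binds the elongation kinases CDK12 and CDK13, whereas YKL-5-124 is a more selective covalent CDK7 inhibitor. When transcription is blocked, short-lived mRNAs such as those of immediate-early genes are lost within hours and long-lived ones such as those of ribosomal proteins persist, so the mRNAs seen early and late after an inhibitor can differ.

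The THZ1 24 h libraries held 15567057 to 18114103 counts, the THZ1 4 h libraries 18464691 to 21749763 and the DMSO libraries 19651529 to 20517571. Their make-up differed. Ribosomal protein genes took 22.2% ± 1.2 of all counts in THZ1 24 h and 12.9% ± 1.97 in THZ1 4 h (SD, n = 3 each), and the ranges did not overlap. The exact two-sided permutation test gave p = 0.1, the smallest that 3 libraries against 3 allow. Genes of the mitochondrial genome took 4.08% ± 0.54 in THZ1 24 h and 1.56% ± 0.52 in THZ1 4 h (SD, n = 3 each; exact permutation p = 0.1). All fold changes are relative to the other mRNAs of the same library: fewer cells and less RNA per cell cannot be told apart in bulk RNA, and no measure of RNA per cell was used here. As a check of identity, the summed level of 18 acinar, islet and liver markers was 0.104 to 0.204 CPM (counts scaled to library size by TMM) in THZ1 24 h and 0.0465 to 0.0949 CPM in THZ1 4 h. That of 25 stromal, endothelial and immune markers was 6.16 to 9.39 CPM in THZ1 24 h and 3.35 to 4.75 CPM in THZ1 4 h, with 6 of these markers at 0 in THZ1 24 h and 13 at 0 in THZ1 4 h; of the acinar, islet and liver markers 17 and 15 were at 0 at these times. The part of other cells in the results was not tested. The epithelial keratins KRT8 and KRT18 were abundant at both times, at 2668 and 289 CPM in THZ1 24 h and 1391 and 532 CPM in THZ1 4 h. Other epithelial and ductal markers varied. DSP stood at 86.7 CPM in THZ1 24 h and 138 CPM in THZ1 4 h, and EPCAM at 62.4 and 19.5 CPM. In the same groups CLDN1 stood at 23.7 and 128 CPM and TJP1 at 23.4 and 144 CPM. Of the 26 markers, 7 were at 0 in THZ1 24 h and 6 in THZ1 4 h. KRT19 had 2 counts in THZ1 24 h and 0 in THZ1 4 h, KRT7 stood at 3.59 and 0.839 CPM, and the E-cadherin gene CDH1 was low.

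Of 14461 genes tested, 4543 were higher in THZ1 24 h than in THZ1 4 h, which is 31.4%, and 5166 were lower, which is 35.7% (edgeR's quasi-likelihood test, adjusted p under 0.05). At least 2-fold changes were called for 3291 genes higher and 3633 lower. In 4611 genes (31.9%) all 3 THZ1 24 h libraries lay above all 3 THZ1 4 h libraries, and in 5261 (36.4%) all lay below. The split between rises and falls depended on how the libraries were scaled, as the plot of counts under 6 scalings shows. Upper-quartile scaling gave 5750 higher and 3921 lower, library totals gave 2292 and 8175, and taking ribosomal protein mRNAs as the constant reference gave 754 and 10390. Over all genes the median log2 fold change moved by 0.38, −0.87 and −1.67 under these 3 scalings. The 6 scalings are these 3, TMM, RLE and DESeq2. DESeq2 moved the median by 0.24, as RLE did, so it added another test more than another scaling. Under all 6 scalings 725 of the 14461 genes were called higher and 3909 lower, which is 16% and 75.7% of those called with TMM. The scalings moved the changes further down than up, so rises met this condition less often than falls. For any gene group below, its members called higher and lower under all 6 are to be read beside 725 and 3909 of all 14461 genes. Its members called with TMM alone are to be read beside 31.4% higher and 35.7% lower. Results below are on the TMM scale, with the members of a gene group called alike under all 6 scalings given beside its count.

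**Figure D1:**
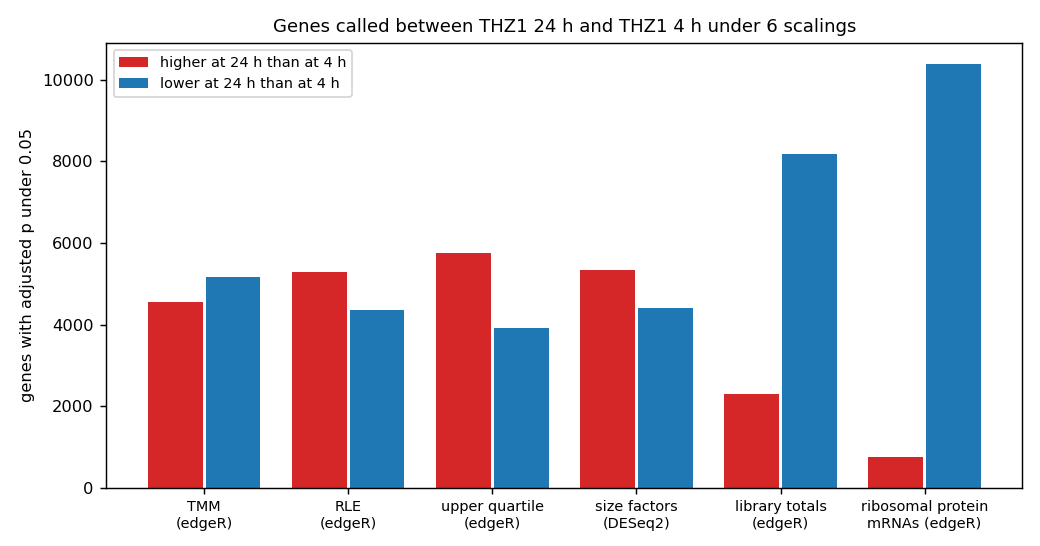
Number of genes called higher (red) and lower (blue) in THZ1 24 h than in THZ1 4 h, on the vertical axis, under each of 6 scalings of the same 14461 genes. The TMM bars stand at 4543 and 5166, while the bars for ribosomal protein mRNAs as the reference stand at 754 and 10390.

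Setting each gene's change between the times beside its change at 4 h against DMSO gave 6 courses. The 2 comparisons share the THZ1 4 h libraries, so the counts are a description. Against DMSO at 4 h, 16.9% of genes were higher and 25.1% lower. A rebound, a fall at 4 h followed by a rise between the times, was seen in 711 genes. A continued fall was seen in 1811 genes and a late fall, with no call at 4 h, in 2962. Late induction, with no call at 4 h, was seen in 2182 genes, a continued rise in 1650 and an early rise that was lost in 393. Under all 6 scalings 216 of the rebounds, 1293 of the continued falls, 1017 of the late falls and 296 of the late inductions kept their course, but only 10 of the continued rises and 1 of the early rises lost. At 24 h, 184 of the 711 rebound genes stood above DMSO, 263 stood below it and 264 did not differ from it by the test. Levels at 24 h against DMSO, here and below, were compared on the TMM scale alone. Mean TMM factors were 0.544 in THZ1 24 h and 1.19 in DMSO, so another scaling could move these levels.

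**Figure D2:**
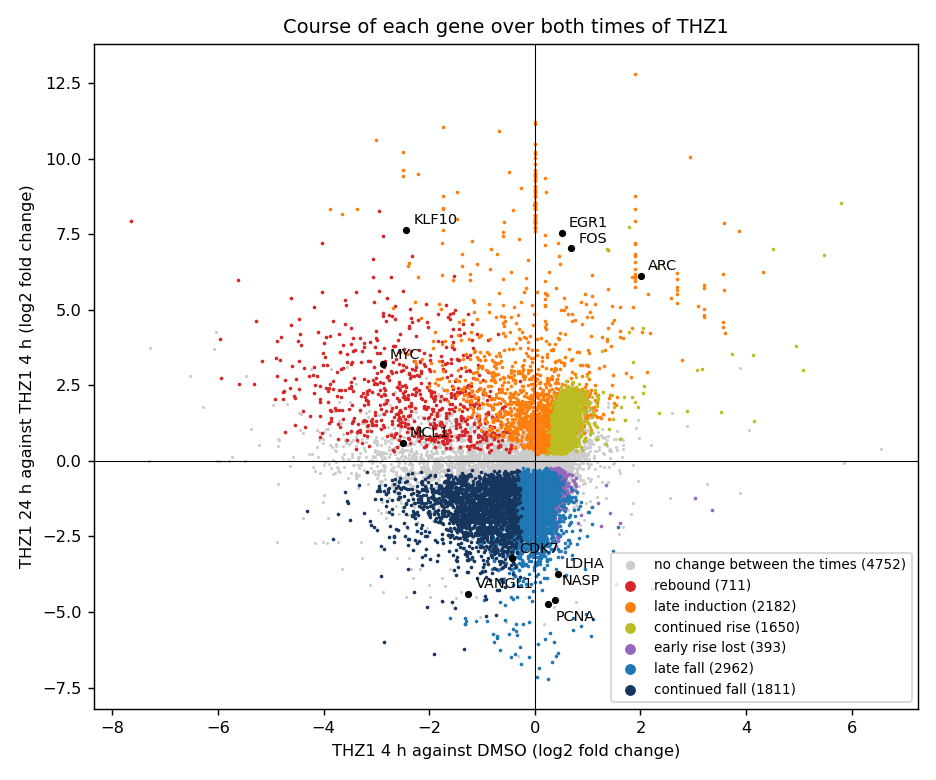
Each point is 1 of the 14461 genes, with its log2 fold change of THZ1 24 h against THZ1 4 h on the vertical axis and of THZ1 4 h against DMSO on the horizontal axis, coloured by course. KLF10 and MYC lie at the upper left, where genes rebounded, and PCNA and NASP lie at the bottom, near no change at 4 h. Points stacked in vertical lines are genes with few or no counts in THZ1 4 h or DMSO, whose fitted values depend on a prior count.

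Among protein-coding genes that overlapped no other tested gene, averaged at least 5 CPM over the 6 THZ1 libraries and did not overlap between the times, the 6 largest rises were those of FRMD1, EGR4, PLCB1, FCRLB, KLF10 and RHOH, and all of these but KLF10 were almost unread at 4 h. FRMD1, which encodes a FERM domain protein, had 13.3, 11.4 and 17.9 CPM in THZ1 24 h and no count in THZ1 4 h or DMSO. Its 394 counts against 0 make it at least 292-fold higher, with the floor set at 3 counts over the 3 THZ1 4 h libraries together. EGR4, an immediate-early zinc finger factor, had 447 counts in THZ1 24 h and 1 in THZ1 4 h, a ratio of 993 with a 95% counting interval of 177 to 39300. PLCB1, a phospholipase C of G protein signalling, had 432, 247 and 204 CPM in THZ1 24 h, against 1.85, 0.265 and 0.326 CPM in THZ1 4 h and 0.58 to 1.14 CPM in DMSO. All 3 THZ1 24 h libraries lay far above the rest (log2 fold change 8.47, SE 0.51, adjusted p = 1.2e-09). FCRLB, an Fc receptor-like gene, behaved alike at 184, 101 and 109 CPM in THZ1 24 h, against 0.759, 0.212 and 0.233 CPM in THZ1 4 h (log2 fold change 8.32, SE 0.38). RHOH, a small GTPase best known from blood cells, had 463 counts in THZ1 24 h and 5 in THZ1 4 h (ratio 206, counting interval 87.5 to 636), and its call was lost with DESeq2. FRMD1, EGR4, PLCB1, FCRLB and RHOH were also near or at 0 in DMSO, and all 5 were late inductions, whereas KLF10 was a rebound.

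Immediate-early transcription factors, which cells make within minutes of a stimulus from mRNAs that decay fast, rose as a group: 21 of the 25 tested were higher in THZ1 24 h and 1 was lower, with a median log2 fold change of 3.55 beside −0.11 over all genes. Of these, 16 were called higher under all 6 scalings and the median stayed positive under each, at 1.88 or more. At 4 h against DMSO 16 had been lower and 1 higher, and 13 of the 25 were rebounds and 7 late inductions.

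KLF10, a TGF-beta-inducible repressor, had 2559, 1923 and 1921 CPM in THZ1 24 h, against 13.6, 8.54 and 9.59 CPM in THZ1 4 h and 60.2, 48.6 and 62.6 CPM in DMSO. Its groups did not overlap: it was lowest at 4 h and far above DMSO at 24 h (24 h against 4 h, log2 fold change 7.66, SE 0.25, adjusted p = 8.7e-12). FOS, the partner of JUN in the AP-1 factor, had 397, 341 and 339 CPM in THZ1 24 h, against 3.04, 3.18 and 1.91 CPM in THZ1 4 h and 2.49, 0.851 and 1.73 CPM in DMSO. EGR1, an ERK-responsive zinc finger factor, had 194, 462 and 509.6 CPM in THZ1 24 h, against 1.66, 2.86 and 1.72 CPM in THZ1 4 h and 1.51, 1.86 and 0.969 CPM in DMSO. FOS and EGR1 were thus low at 4 h and in DMSO alike and high at 24 h in every library, with log2 fold changes between the times of 7.05 (SE 0.44) and 7.55 (SE 0.43). ARC, a neuronal activity gene, was called higher at both steps and averaged 40.4 ± 6.0 CPM in THZ1 24 h, 0.578 ± 0.259 CPM in THZ1 4 h and 0.133 ± 0.121 CPM in DMSO (SD, n = 3 each). SRF, the factor that drives many of these promoters, fell instead, to 58.3 ± 3.23 CPM in THZ1 24 h against 106 ± 8.65 CPM in THZ1 4 h (log2 fold change −0.86, SE 0.15, adjusted p = 0.00013).

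The promoters of 3 genes of this group and of PCNA are shown as the 250 bases before the start in RefSeq (GRCh38.p14). PCNA was the largest fall among genes chosen by the same criteria as the largest rises. EGR1 is at chr5:138465229-138465478 on the plus strand, FOS at chr14:75278578-75278827 (plus), FOSB at chr19:45467746-45467995 (plus) and PCNA at chr20:5126623-5126872 (minus). In EGR1, FOS and FOSB capitals mark the CArG box, which SRF binds, and the TATA box letters TATAAA. In PCNA they mark CCAAT, in either orientation. Different motifs were marked, so the capitals do not compare PCNA with the others.
EGR1: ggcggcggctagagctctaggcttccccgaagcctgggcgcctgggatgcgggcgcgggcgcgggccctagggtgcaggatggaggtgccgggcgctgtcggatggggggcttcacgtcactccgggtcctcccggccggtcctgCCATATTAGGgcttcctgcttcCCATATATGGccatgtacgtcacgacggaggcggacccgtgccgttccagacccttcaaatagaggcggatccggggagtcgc
FOS: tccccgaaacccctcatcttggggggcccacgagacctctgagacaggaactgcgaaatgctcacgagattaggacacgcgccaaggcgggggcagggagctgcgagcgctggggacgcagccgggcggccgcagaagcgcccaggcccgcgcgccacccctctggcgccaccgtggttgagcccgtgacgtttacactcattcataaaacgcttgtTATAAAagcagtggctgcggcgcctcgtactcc
FOSB: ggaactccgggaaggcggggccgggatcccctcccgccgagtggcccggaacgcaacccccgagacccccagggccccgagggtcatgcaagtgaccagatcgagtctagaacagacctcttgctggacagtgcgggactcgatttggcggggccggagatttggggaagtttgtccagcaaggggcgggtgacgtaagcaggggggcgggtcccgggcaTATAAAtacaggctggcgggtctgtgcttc
PCNA: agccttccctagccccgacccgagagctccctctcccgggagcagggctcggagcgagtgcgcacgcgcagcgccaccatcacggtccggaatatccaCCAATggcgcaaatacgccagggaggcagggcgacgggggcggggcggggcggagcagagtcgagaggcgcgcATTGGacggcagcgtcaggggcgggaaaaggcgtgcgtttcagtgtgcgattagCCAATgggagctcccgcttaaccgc

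EGR1 held 2 CArG boxes, FOS and FOSB 1 TATAAA each, and PCNA 3 CCAAT, counting only the motifs marked in each. In the longer window described next, SRF, which fell, held a CArG box, TATAAA and CCAAT. JUN, a rebound, held CCAAT too. Over the 300 bases from 250 before to 50 after the start, searched on both strands, 8.04% of the 460 rebound genes with a promoter in the table held TATAAA, as did 6.58% of 1095 late induction genes, against 5.13% of all 9479 tested protein-coding genes with one. The cAMP response element TGACGTCA was in 5.43% of rebound and 3.11% of late induction promoters, against 3.28% of all. The AP-1 letters TGANTCA were in 4.35% and 4.29%, against 4.37% of all. The CArG box was in 0.652% of rebound and 2.01% of late induction promoters, against 1.03% of all. CCAAT was in 40.7% of rebound and 38% of late fall promoters, against 36.4% of all, and the SP1 letters GGGCGG in 72.8% and 70.7%, against 71.6%. TATAAA can lie within a CArG box, and a promoter may hold several of the motifs. A match is only a run of letters in this window.

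ERK feedback genes, the phosphatases and Sprouty proteins that ERK signalling switches on to restrain itself, were split, with 8 of 18 higher and 6 lower in THZ1 24 h (median 0.06, and −0.80 with library totals and −1.58 with the ribosomal protein reference). At 4 h 14 had been lower than in DMSO and none higher. Between the times the shares were 44.4% higher and 33.3% lower, beside 31.4% and 35.7% of all genes. Under all 6 scalings 6 were higher and 2 lower. DUSP1, a nuclear MAP kinase phosphatase, had 38.8, 29.3 and 29.9 CPM in THZ1 24 h, against 2.28, 2.17 and 1.72 CPM in THZ1 4 h and 67.5, 44.6 and 70.3 CPM in DMSO. It rebounded without reaching DMSO (24 h against 4 h, log2 fold change 3.99, SE 0.24; 24 h against DMSO, −0.90, adjusted p = 0.00068). DUSP8, a phosphatase of stress-activated kinases, also rose (log2 fold change 4.17), whereas the ERK-induced factor ETV5 fell by 1.39 on the log2 scale. DUSP4, which dephosphorylates ERK, fell by 1.4 with few counts, and that call was lost with upper-quartile scaling (adjusted p = 0.052) and without THZ1 24 h replicate 2 (−0.91, adjusted p = 0.076).

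Among activators of mRNA decay, which shorten the tails of their targets, 9 of 20 were higher and 7 lower in THZ1 24 h. Their shares were 45% and 35%, beside 31.4% and 35.7% of all genes, and 3 and 6 were called alike under all 6 scalings. The median of 0.37 turned to −0.50 with library totals and −1.31 with the ribosomal protein reference. ZFP36, which binds AU-rich elements, had 97.8, 98.9 and 109.9 CPM in THZ1 24 h, against 2.14, 5.04 and 4.10 CPM in THZ1 4 h and 11.8, 12.4 and 10.8 CPM in DMSO. It was lowest at 4 h and highest at 24 h with no overlap (log2 fold change 4.77, SE 0.22). ZC3H12A, an endonuclease that degrades inflammatory mRNAs, rose by 4.28 on the log2 scale. CNOT1, the scaffold of the deadenylase complex, and CNOT6L, one of its nucleases, fell by 2.76 and 3.40, and CNOT1 overlaps another tested gene.

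Genes of the NF-kB system and its inflammatory targets were higher in 15 of 23 and lower in 4, with 6 and 4 alike under all 6 scalings and a median of 1.5 (−0.16 with the ribosomal protein reference). NFKBIA, the inhibitor that NF-kB itself induces, had 234, 166 and 160.2 CPM in THZ1 24 h, against 8.26, 5.30 and 5.21 CPM in THZ1 4 h and 47.4, 39.6 and 51.2 CPM in DMSO. The groups did not overlap, and it rebounded past DMSO (log2 fold change 4.90, SE 0.25). The chemokine gene CXCL3 averaged 23.5 ± 6.04 CPM in THZ1 24 h, 0.444 ± 0.183 CPM in THZ1 4 h and 0.335 ± 0.0569 CPM in DMSO (SD, n = 3 each). The subunits RELA and NFKB2 fell by 1.04 and 1.11 on the log2 scale, so the inhibitor and chemokine genes and the subunit genes named here moved in opposite directions.

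MYC, the growth-promoting factor on which many cancer cells depend, had 152, 117 and 118 CPM in THZ1 24 h, against 10.2, 18.8 and 13.3 CPM in THZ1 4 h and 96.9, 106 and 107 CPM in DMSO. It rebounded to a level that did not differ from DMSO by the test (24 h against 4 h, log2 fold change 3.20, SE 0.19, adjusted p = 1.1e-09; 24 h against DMSO, 0.32, adjusted p = 0.10). Its call between the times held under all 6 scalings, but its level against DMSO was compared on the TMM scale alone. MAX, with which MYC binds DNA, and MGA, a MAX partner that represses, fell by 1.77 and 2.96, and MAX overlaps another tested gene. In the MYC and MAX network 5 of 11 were higher and 4 lower, with 1 and 3 under all 6 scalings. That is 45.5% and 36.4%, beside 31.4% and 35.7% of all genes, so the share lower was near that of all genes.

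The list of p53 targets, beside a background of 31.4% higher and 35.7% lower, had 10 of 29 higher and 13 lower, with 4 and 8 under all 6 scalings, and 8 of the 10 were rebounds. GADD45B, a stress-induced growth arrest gene, had 539.6, 351 and 343 CPM in THZ1 24 h, against 18.9, 15 and 12.8 CPM in THZ1 4 h and 82.8, 75.6 and 77.3 CPM in DMSO. It exceeded DMSO in every library at 24 h (24 h against 4 h, log2 fold change 4.72, SE 0.20). The stress cytokine GDF15 rose by 5.00 (SE 0.44), and the death receptor TNFRSF10B and the AKT inhibitor PHLDA3 fell by 2.02 and 2.53. TNFRSF10B overlaps another tested gene. CDKN1A, the classical p53 target, stood at 25.5 CPM in THZ1 24 h and 39.5 CPM in THZ1 4 h (log2 fold change −0.63). GADD45B and GDF15 can also respond to other stresses, and the part of p53 in these changes was not tested.

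In the list of CDK inhibitors and the RB family 6 of 20 were higher, which is 30% beside 31.4% of all genes, and 9 were lower, which is 45% beside 35.7%, with 4 and 6 under all 6 scalings. CDKN1B, which encodes p27, had 71.1, 71.1 and 73.3 CPM in THZ1 24 h, against 8.64, 7.0 and 6.38 CPM in THZ1 4 h and 49.7, 41.4 and 51.1 CPM in DMSO (log2 fold change 3.29, SE 0.16). CDKN2B, an inhibitor of CDK4 and CDK6, averaged 12.6 ± 0.283 CPM in THZ1 24 h and 1.22 ± 0.427 CPM in THZ1 4 h (SD, n = 3 each; log2 fold change 3.37). Both were called higher under all 6 scalings. The lower members included the pocket protein RBL1 (−2.21) and the repressor E2F4 (−1.56). ID1, which blocks differentiation factors, had 32.2, 32.8 and 33.2 CPM in THZ1 24 h, 0.380, 0.796 and 0.791 CPM in THZ1 4 h and 4.17, 2.86 and 4.04 CPM in DMSO, a rebound of 5.64 on the log2 scale. MC5R, a melanocortin receptor gene, had 295 counts in THZ1 24 h and 9 in THZ1 4 h, a ratio of 72.8 (counting interval 37.8 to 161). CDKN1B and CDKN2B each overlap another tested gene, and the sources used here do not say whether counting used strand, so reads of such pairs cannot be told apart.

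**Figure D3:**
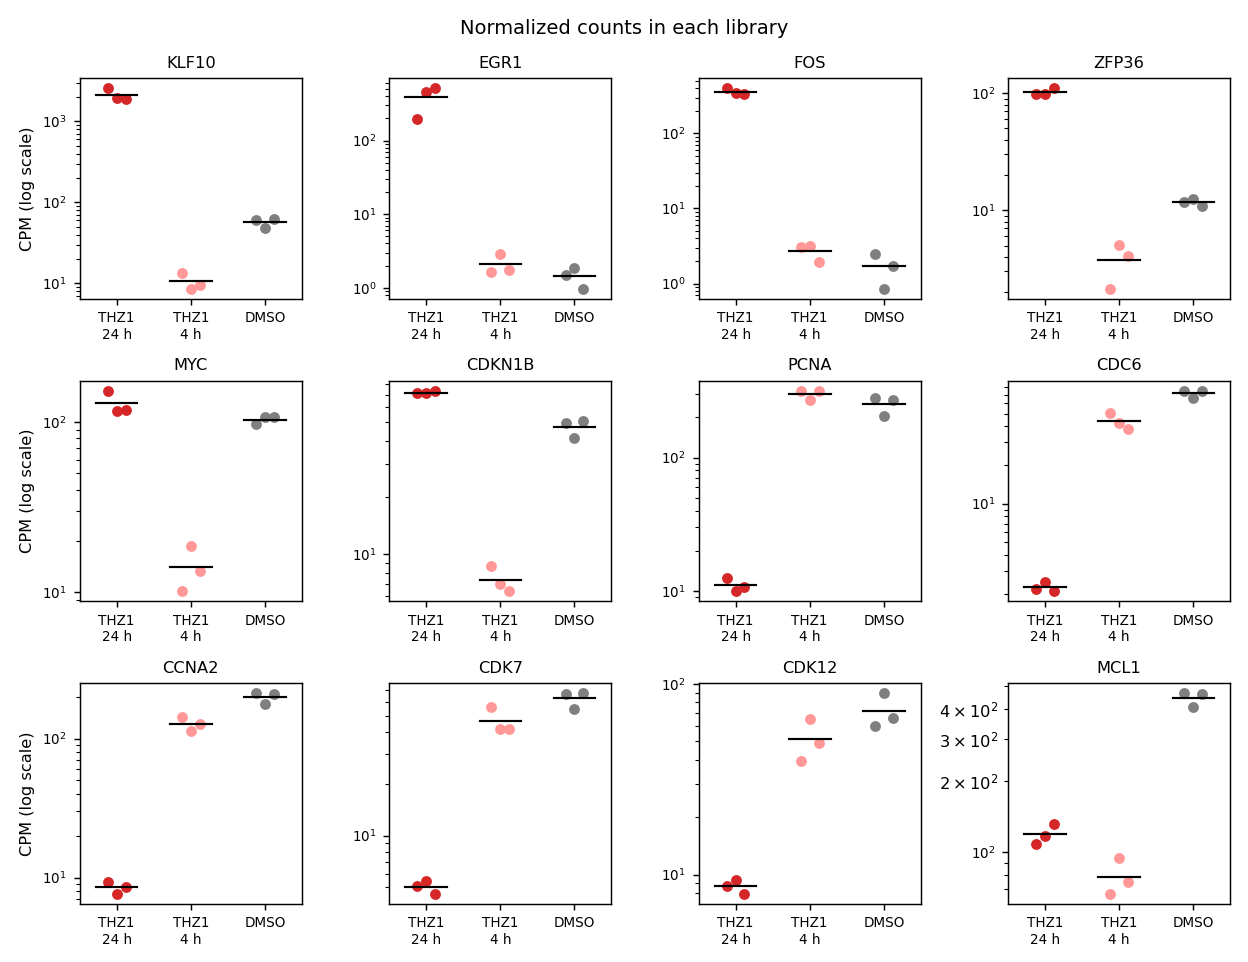
CPM of 12 genes in each library (points, n = 3 per group) with the group mean (line), for THZ1 24 h, THZ1 4 h and DMSO from left to right. Each panel has its own logarithmic vertical axis. KLF10, EGR1, FOS, ZFP36, MYC and CDKN1B are lower in THZ1 4 h than in THZ1 24 h in every library, and PCNA, CDC6, CCNA2, CDK7 and CDK12 are lower in THZ1 24 h than in THZ1 4 h in every library.

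By the same criteria the 6 largest falls were those of PCNA, NASP, NLRP2, VANGL1, NUP85 and CDC6. PCNA, the sliding clamp of DNA polymerases, had 12.6, 10.0 and 10.9 CPM in THZ1 24 h, against 314, 268 and 315 CPM in THZ1 4 h and 278, 206 and 269 CPM in DMSO. It had not been lower at 4 h and then fell in every library (log2 fold change −4.75, SE 0.16, adjusted p = 9.4e-12). NASP, a histone chaperone, had 6.16, 7.66 and 8.24 CPM in THZ1 24 h, against 157, 202 and 177 CPM in THZ1 4 h and 127, 154 and 132 CPM in DMSO, an early rise that was lost (−4.59). CDC6, which loads the replicative helicase, had 2.17, 2.45 and 2.09 CPM in THZ1 24 h, against 51.0, 42.0 and 38.1 CPM in THZ1 4 h and 74.6, 66.4 and 75 CPM in DMSO, a fall at both steps (−4.28). NLRP2, an innate immune gene, NUP85, a nuclear pore scaffold, and VANGL1, a planar polarity gene, fell by 4.49, 4.32 and 4.40. All 6 were called lower under all 6 scalings. TMEM246 fell by 3.85 and SLC39A10, a zinc transporter, by 2.96.

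Mitotic genes fell together. Of the 53 tested, 46 were lower in THZ1 24 h and 4 higher, against 35.7% and 31.4% of all genes, with a median log2 fold change of −2.34, and the 46 were called lower under all 6 scalings. At 4 h 15 of the 53 had been lower than in DMSO, near the 25.1% of all genes. Between the times 27 were late falls and 15 continued falls. CCNA2, the S phase and mitotic cyclin, had 9.30, 7.66 and 8.56 CPM in THZ1 24 h, against 142, 112 and 128 CPM in THZ1 4 h and 211, 176 and 210.5 CPM in DMSO (log2 fold change −3.91, SE 0.15). CENPF, a kinetochore protein, had 5.92, 7.76 and 10.1 CPM in THZ1 24 h, against 48.9, 192 and 124 CPM in THZ1 4 h, and so varied widely among the THZ1 4 h libraries (log2 fold change −3.93, SE 0.63). BIRC5, which encodes survivin, was an exception at 499 ± 12.6 CPM in THZ1 24 h and 271 ± 30.8 CPM in THZ1 4 h (SD, n = 3 each; log2 fold change 0.88, and −0.77 with the ribosomal protein reference). The mitotic transcription factor FOXM1 was called higher at 0.89 (SE 0.35), with libraries that overlapped between the times and a reversal to −0.81 with the ribosomal protein reference, and the call was lost in 4 of the 6 fits that left out 1 THZ1 library. CCNA2, CENPF and FOXM1 each overlap another tested gene.

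Replication genes were lower in 29 of 46 and higher in 9, with 27 lower and none higher under all 6 scalings (median −1.0). TYMS, a nucleotide enzyme, was among the genes that rose and averaged 154 ± 17.1 CPM in THZ1 24 h and 45.2 ± 4.28 CPM in THZ1 4 h (SD, n = 3 each). Its call was lost with the ribosomal protein reference, and it overlaps another tested gene. Homologous recombination and Fanconi genes were lower in 24 of 34 and higher in 2, with 17 lower under all 6 scalings. BRCA1 averaged 5.79 ± 0.994 CPM in THZ1 24 h and 34.6 ± 4.00 CPM in THZ1 4 h (SD, n = 3 each; log2 fold change −2.58, overlapping another tested gene), and UBE2T, the Fanconi ubiquitin-conjugating enzyme, fell by 2.52. In the ATR checkpoint list 12 of 21 were lower and 5 higher, with 10 lower and none higher under all 6 scalings. The mitotic phosphatases CDC25C and CDC25B fell by 3.27 and 2.5. WEE1, the kinase that opposes them, rebounded to 15.5 ± 4.40 CPM in THZ1 24 h against 4.56 ± 0.321 CPM in THZ1 4 h and 63.0 ± 9.89 CPM in DMSO (SD, n = 3 each; log2 fold change 1.76), a call lost with the ribosomal protein reference.

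Replication-dependent histone genes moved the other way: 35 of 44 tested were higher in THZ1 24 h and none lower, with a median of 2.21, and 17 were called higher under all 6 scalings. Of the 35, 31 were late inductions. HIST1H2BG averaged 12.4 ± 0.627 CPM in THZ1 24 h and 0.270 ± 0.245 CPM in THZ1 4 h (SD, n = 3 each), and HIST1H3J had 128 counts and 10 counts, a ratio of 28.4 (counting interval 15 to 60.7). Their mRNAs normally end in a stem-loop without a poly(A) tail, and the genes are near-identical copies that can share reads, so their levels are uncertain.

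**Figure D4:**
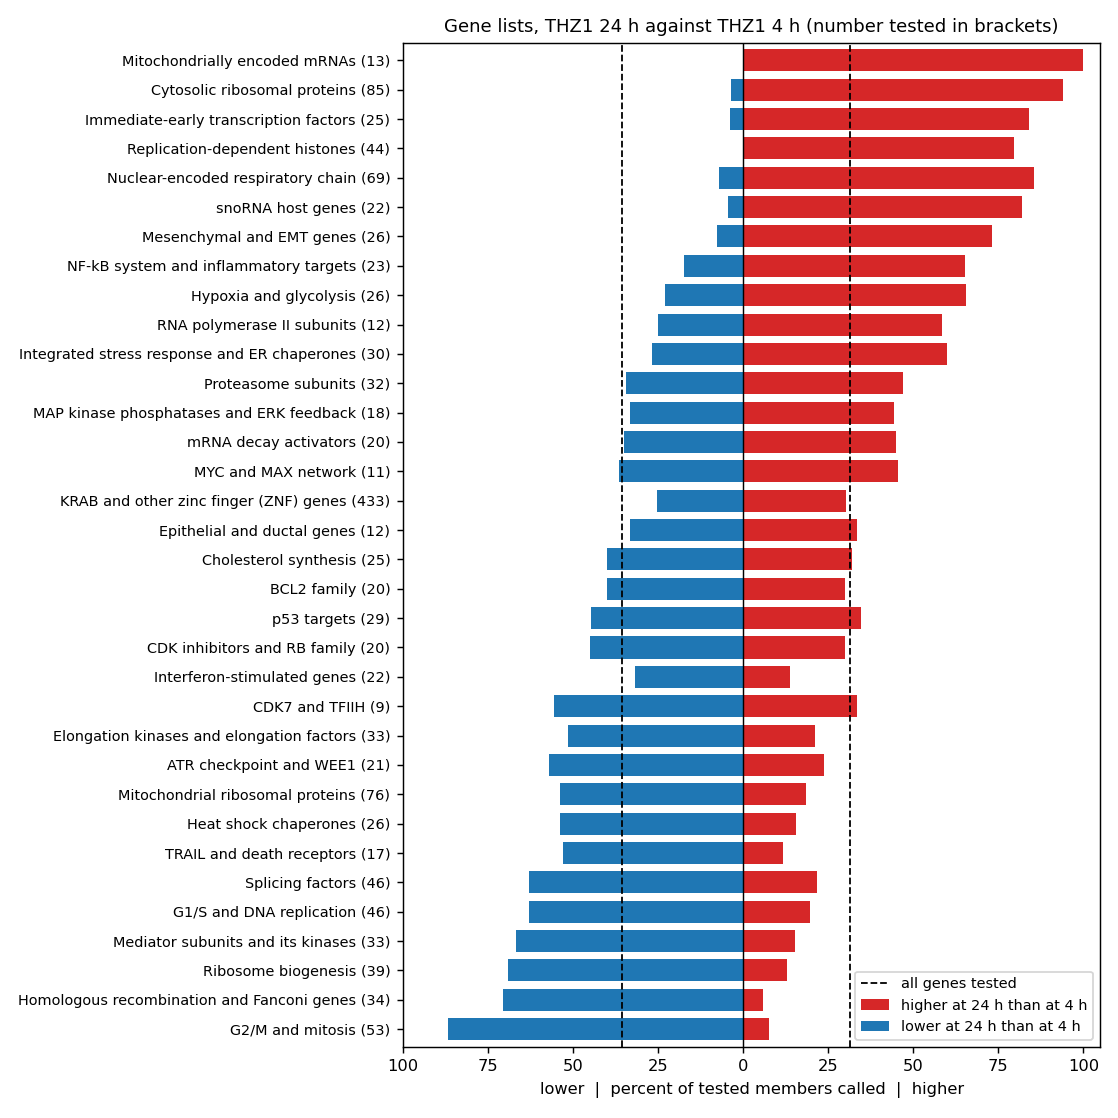
Percent of the tested members of each gene list (rows, number tested in brackets) called higher in THZ1 24 h than in THZ1 4 h (red, to the right) or lower (blue, to the left). Dashed lines mark all genes tested, at 31.4% higher and 35.7% lower; the immediate-early list reaches 21 of 25 higher and the mitosis list 46 of 53 lower.

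CDK7 itself, the target of both compounds, had 5.07, 5.41 and 4.59 CPM in THZ1 24 h, against 56.0, 42.0 and 41.9 CPM in THZ1 4 h and 67.1, 54.3 and 67.3 CPM in DMSO. It fell slightly by 4 h (4 h against DMSO, −0.43, adjusted p = 0.032) and then in every library (24 h against 4 h, log2 fold change −3.21, SE 0.18, adjusted p = 6.8e-10). CDK12, which phosphorylates elongating polymerase, had 8.70, 9.39 and 7.93 CPM in THZ1 24 h, against 39.3, 65.3 and 49.2 CPM in THZ1 4 h and 59.8, 89.1 and 66.4 CPM in DMSO (−2.56, SE 0.20). Its relative CDK13 had 6.16, 5.41 and 6.89 CPM in THZ1 24 h, against 7.45, 14.5 and 12.5 CPM in THZ1 4 h, and its fall of 0.90 (SE 0.33, adjusted p = 0.024) was lost with RLE, upper-quartile or DESeq2 scaling and in 5 of the 6 fits that left out 1 THZ1 library (adjusted p 0.059 to 0.12), all but the one without THZ1 4 h replicate 1. In the list of CDK7 and TFIIH 5 of 9 were lower and 3 higher, with 3 lower and none higher under all 6 scalings. As shares these were 55.6% lower and 33.3% higher, beside 35.7% and 31.4% of all genes. The helicase ERCC3 fell by 1.85, and GTF2H3 rose by 0.63 but was lower with library totals (−0.23) and the ribosomal protein reference (−1.04), and overlaps another tested gene.

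Elongation kinases and factors were lower in 17 of 33 and higher in 7, with 12 lower and 1 higher under all 6 scalings. RTF1 and LEO1, subunits of the PAF complex that travels with RNA polymerase II, fell, with RTF1 at 7.81 ± 2.17 CPM in THZ1 24 h and 86.1 ± 18.0 CPM in THZ1 4 h (SD, n = 3 each; log2 fold change −3.45) and LEO1 at −2.95 on the log2 scale. HEXIM2, an inhibitor of the elongation kinase CDK9, rose on few reads, with 73 counts in THZ1 24 h and 4 in THZ1 4 h (ratio 40.5, counting interval 15.2 to 153). RNA polymerase II subunits were higher in 7 of 12 and lower in 3, with none higher and 2 lower under all 6 scalings (median 0.63, and −1.02 with the ribosomal protein reference). That is 58.3% higher and 25% lower, beside 31.4% and 35.7% of all genes. POLR2B, a large catalytic subunit, fell by 2.14 and POLR2D by 2.35, while the shared small subunits POLR2E and POLR2L rose by 1.89 and 1.51, of which POLR2L was at −0.16 and POLR2E lost its call with the ribosomal protein reference. POLR2B, POLR2E and POLR2L each overlap another tested gene. Mediator, the bridge between activators and polymerase, was lower in 22 of 33 and higher in 5, with 17 and 3 under all 6 scalings. MED1 and the kinase CDK8 fell by 2.68 and 2.44, and MED18 rose on few reads, with 88 counts in THZ1 24 h and 5 in THZ1 4 h.

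MCL1, a short-lived survival protein of the BCL2 family, had 108, 117 and 132 CPM in THZ1 24 h, against 67.0, 94.2 and 74.7 CPM in THZ1 4 h and 464, 409 and 463 CPM in DMSO. Both times lay far below DMSO, and the rise between them was small (log2 fold change 0.60, SE 0.12, adjusted p = 0.00051). It was at −0.27 with library totals and −1.10 with the ribosomal protein reference, and MCL1 overlaps an antisense gene. In the BCL2 family 6 of 20 were higher and 8 lower, near the background of all genes, with none higher and 5 lower under all 6 scalings. BAK1, which permeabilises mitochondria, had 3.99, 2.45 and 2.61 CPM in THZ1 24 h, against 36.0, 28.2 and 30.3 CPM in THZ1 4 h (−3.40, SE 0.20), and BOK fell by 2.40. BBC3, which encodes PUMA, rose by 1.72 and BID by 1.09, the first call lost and the second turned to −0.56 with the ribosomal protein reference. Of the TRAIL and death receptor genes 9 of 17 were lower, all 9 under all 6 scalings, and 2 were higher. CASP8 fell by 2.28, and the decoy receptor TNFRSF10D rose by 2.19, a call lost with the ribosomal protein reference.

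Ribosome biogenesis factors were lower in 27 of 39 and higher in 5, with 24 lower under all 6 scalings and a median of −1.48. UTP20, a processome subunit, had 7.61, 6.23 and 5.22 CPM in THZ1 24 h, against 69.1, 109.8 and 100.3 CPM in THZ1 4 h (−3.88, SE 0.24), and GNL3, a nucleolar GTPase that overlaps other tested genes, fell by 3.94. NOP2, an rRNA methyltransferase, stood at 18.6 CPM in THZ1 24 h, 0.194 CPM in THZ1 4 h and 0.134 CPM in DMSO. It overlaps another annotated gene, and the sources used here do not say how shared reads were counted. KRT8, KRT18, FOSB, ETV5, RELA, CDC25C, LEO1, MED1, SNRPD2, MRPS18B, SNHG6, PSMD2, HSP90AA1, HK2, MVK, SREBF2, TJP1 and ZNF699 each overlap another tested gene too, so their levels are less certain.

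Splicing factors were lower in 29 of 46 and higher in 10, with 25 lower and none higher under all 6 scalings. SRSF3, which regulates splicing and mRNA export, had 45.4, 46.1 and 38 CPM in THZ1 24 h, against 651, 575 and 679.8 CPM in THZ1 4 h and 800.1, 616 and 773 CPM in DMSO (log2 fold change −3.88, SE 0.16). SNRPD1, a core snRNP protein, fell by 2.62, while its partner SNRPD2 rose by 1.81, a call lost with the ribosomal protein reference. Mitochondrial ribosomal proteins were lower in 41 of 76 and higher in 14, with 37 lower under all 6 scalings, and MRPS26 and MRPS18B fell by 3.16 and 3.02.

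Cytosolic ribosomal protein mRNAs stood in contrast to those of the mitochondrial ribosome. Of the 85 tested, 80 were higher in THZ1 24 h and 3 lower, with a median log2 fold change of 1.67, which was 0.80 with library totals and, by its construction, 0.02 with these mRNAs as the reference; 22 were higher and 3 lower under all 6 scalings. At 4 h against DMSO 51 had already been higher, and 49 of the 85 were continued rises. RPL36A and RPS10, called rebounds at a few CPM, each overlap another annotated gene and are uncertain. The lower ones included RPL39L and RPL7L1, paralogs of ribosomal protein genes, at −1.60 and −1.36.

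All 13 mRNAs of the mitochondrial genome were higher (median 1.92), and 1 of them, MT-CO1, was called under all 6 scalings. MT-CO1, a core subunit of cytochrome oxidase, had 15293, 15098 and 15997 CPM in THZ1 24 h, against 2104, 3768 and 2788 CPM in THZ1 4 h and 1699, 1817 and 1501 CPM in DMSO (log2 fold change 2.42, SE 0.17). These mRNAs are made by the mitochondrial polymerase, not by RNA polymerase II. Nuclear-encoded respiratory chain genes were higher in 59 of 69 and lower in 5, with 8 and 4 under all 6 scalings (median 1.23, and −0.43 with the ribosomal protein reference). COX8A and NDUFA3, small subunits, rose by 2.19 and 2.12, and NDUFA3 overlaps another tested gene. SDHA, the catalytic subunit of succinate dehydrogenase, fell to 82.7, 80.4 and 77.9 CPM in THZ1 24 h, against 482, 687 and 687 CPM in THZ1 4 h (−2.95, SE 0.15).

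Host genes of snoRNAs, which carry these small RNAs in their introns, were higher in 18 of 22 and lower in 1, with 5 higher under all 6 scalings (median 1.55, and −0.11 with the ribosomal protein reference). C6orf48 and SNHG6 rose by 2.63 and 2.25, and SNHG16 fell by 2.08. Proteasome subunits were higher in 15 of 32 and lower in 11, which is 46.9% and 34.4% beside 31.4% and 35.7% of all genes. None was higher and 10 were lower under all 6 scalings. PSMD2, a base subunit, had 5146, 5247 and 5214 CPM in THZ1 24 h, against 1643, 1653 and 1669 CPM in THZ1 4 h (1.65, and −0.02 with the ribosomal protein reference), whereas the ATPase PSMC6 fell by 2.82 under the main scaling and fell under all 6.

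Stress genes did not move as 1 group. Integrated stress response and endoplasmic reticulum chaperone genes were higher in 18 of 30 and lower in 8 (median 0.97), and 8 of the 18 were rebounds. With the ribosomal protein reference 1 was higher and 17 lower (median −0.70), and under all 6 scalings 1 was higher and 3 lower. DDIT4, an inhibitor of mTOR signalling, averaged 3.51 ± 0.663 CPM in THZ1 24 h, 0.584 ± 0.325 CPM in THZ1 4 h and 8.75 ± 2.76 CPM in DMSO (SD, n = 3 each), and CHAC1 rose by 2.56, a call lost with the ribosomal protein reference. Heat shock chaperones were lower in 14 of 26 and higher in 4, with 8 lower and none higher under all 6 scalings. HSPA8, the constitutive HSP70, had 247, 183 and 188 CPM in THZ1 24 h, against 2901, 1906 and 1973 CPM in THZ1 4 h and 3628, 2807 and 3531 CPM in DMSO (−3.46, SE 0.20), and its co-chaperone DNAJA1 fell by 2.74. HSP90AA1 instead rose, at 19186 ± 133 CPM in THZ1 24 h and 8125 ± 206 CPM in THZ1 4 h (SD, n = 3 each), and was at −0.43 on the log2 scale with the ribosomal protein reference. HSPA8 overlaps a snoRNA gene.

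Of hypoxia and glycolysis genes 17 of 26 were higher and 6 lower, with 4 and 6 under all 6 scalings (median 0.93, and −0.75 with the ribosomal protein reference). ADM, a vasodilator hormone gene induced by hypoxia, had 652, 442 and 461 CPM in THZ1 24 h, against 13.2, 11.8 and 12.3 CPM in THZ1 4 h and 345, 287 and 290.2 CPM in DMSO (log2 fold change 5.38, SE 0.18), a rebound. LDHA, the muscle-type lactate dehydrogenase, had 182, 197 and 191 CPM in THZ1 24 h, against 2525, 2349 and 2706 CPM in THZ1 4 h and 2006, 1664 and 1952 CPM in DMSO, an early rise lost (−3.73, SE 0.11). HK2, the inducible hexokinase, fell by 2.26. Of cholesterol synthesis genes 8 of 25 were higher and 10 lower, which is 32% and 40% and near the 31.4% and 35.7% of all genes, with none higher and 9 lower under all 6 scalings. SQLE and MVK, enzymes of the pathway, fell by 3.50 and 2.79, and its regulator SREBF2 rose by 1.40 on the main scale but stood at −0.30 with the ribosomal protein reference. Interferon-stimulated genes were higher in 3 of 22 and lower in 7, which is 13.6% and 31.8% beside 31.4% and 35.7% of all genes. Under all 6 scalings 1 was higher and 5 lower. The RNA sensors IFIH1 and DDX58 fell by 3.51 and 2.45, and IFI6 rose by 2.30.

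Mesenchymal genes were higher in 19 of 26 and lower in 2, with 5 higher under all 6 scalings (median 1.57, and −0.08 with the ribosomal protein reference). SNAI1 and SNAI2, repressors of E-cadherin, rose by 3.71 and 4.39, SNAI2 on 76 counts in THZ1 24 h and 8 in THZ1 4 h. Of epithelial genes 4 of 12 were higher and 4 lower, which is 33.3% each and near the 31.4% and 35.7% of all genes, with 1 and 4 under all 6 scalings. CDH1 had 5.36 ± 1.70 CPM in THZ1 24 h and 0.234 ± 0.122 CPM in THZ1 4 h (SD, n = 3 each; log2 fold change 4.51), so it rose alongside its repressors, and the junction genes TJP1 and CLDN1 fell by 2.61 and 2.44. Zinc finger (ZNF) genes, many of which encode KRAB repressors, had fallen at 4 h in 346 of 433, against 25.1% of all genes. Between the times 131 were higher and 110 lower, which is 30.3% and 25.4%, the first near the 31.4% and the second below the 35.7% of all genes, with 26 and 64 under all 6 scalings. ZNF296 and ZNF699 rebounded by 5.60 and 5.12, while ZNF41 and ZNF559 fell by a further 3.27 and 2.93. ZNF296 had 182 counts in THZ1 24 h and 8 in THZ1 4 h (ratio 50.5, counting interval 25.1 to 119). ZNF559 had 8 counts in THZ1 24 h and 137 in THZ1 4 h (ratio 0.13, counting interval 0.0549 to 0.263).

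The courses differed in gene structure. Protein-coding genes spanning under 5 kb were higher in THZ1 24 h in 50.6% and lower in 18% of 978, with a median log2 fold change of 0.81. At 100 to 500 kb, 19.5% were higher and 49.3% lower of 2261, with a median of −0.62. The 146 genes of 500 kb or more did not extend this order, at 23.3% higher and 38.4% lower with a median of −0.48. The 229 intronless genes were higher in 55% and lower in 14.8%, with a median of 1.15, after a median of −1.09 at 4 h against DMSO. Across the 12212 protein-coding genes tested, Spearman's rho of the log2 fold change was −0.227 with span, −0.198 with exonic length and 0.197 with GC content. These are descriptions across genes, which are not independent replicates and share libraries, base composition and length. The 592 rebound protein-coding genes had a median span of 11183 bases and 11.3% were intronless, against 33718 bases and 1.88% of all tested, whereas late falls had a median span of 47554 bases and 0.432% intronless. Among genes called alike under all 6 scalings, the 451 higher had a median span of 7701 bases and the 3752 lower 44903 bases. Adding each library's slope on transcript length to the fit gave medians of 0.84 under 5 kb and −0.61 at 100 to 500 kb. That slope was measured from the mean of each library's own group. It therefore cannot take out a length difference between the times, and the unchanged medians say nothing about one.

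**Figure D5:**
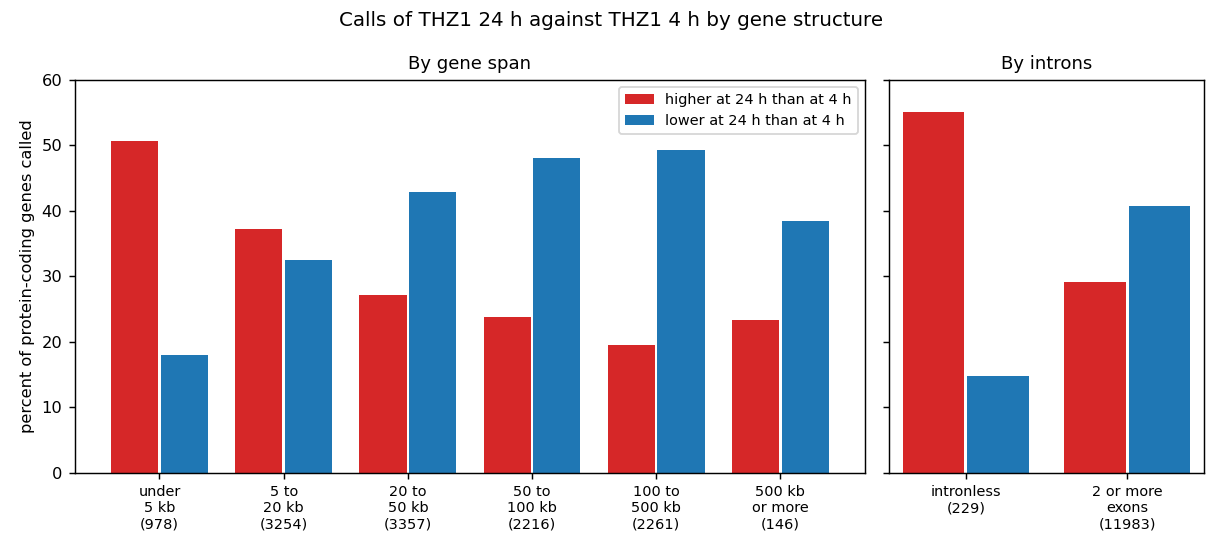
Percent of protein-coding genes called higher (red) or lower (blue) in THZ1 24 h than in THZ1 4 h, by genomic span (left) and by introns (right), with the number of genes in brackets. The share called higher is 50.6% under 5 kb and 19.5% at 100 to 500 kb, and 55% in intronless genes.

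Of protein-coding genes 29.6% were higher in THZ1 24 h and 40.2% lower, and the larger classes of other RNA had a different split. Processed pseudogenes were higher in 57.2% and lower in 9.73% of 339, lincRNAs in 39.7% and 11.3% of 564, and antisense RNAs in 40.2% and 8.99% of 645. Processed pseudogenes copy spliced mRNAs and can share reads with the parent gene, ribosomal protein genes among them, so their levels are uncertain.

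THZ1 and YKL-5-124, both at 100 nM, were compared as 1 pair in how genes changed between the same times. Between its own 24 h and 4 h YKL-5-124 had 3049 genes called (21.1%), and for 8331 genes (57.6%) the change in THZ1 differed from that in YKL-5-124 (interaction of compound and time, edgeR, adjusted p under 0.05). The log2 change of KLF10 was 7.66 in THZ1 and 0.64 in YKL-5-124 (difference 7.02, SE 0.29, adjusted p = 3.0e-10). That of FOS was 7.05 in THZ1 and 1.78 in YKL-5-124 (difference 5.27, SE 0.56), and that of MYC 3.20 and 0.22 (difference 2.97, SE 0.25). PCNA changed by −4.75 in THZ1 and −0.95 in YKL-5-124 (difference −3.80, SE 0.20), and CDK7 by −3.21 and 0.25 (difference −3.46, SE 0.23). HLA-C, an antigen-presenting molecule, averaged 270.5 ± 27.4 CPM in THZ1 24 h and 42.7 ± 0.186 CPM in THZ1 4 h (SD, n = 3 each) and differed as well (difference 2.69, SE 0.17), though it can share reads with other class I genes of near-identical sequence. The secretory chaperone gene PCSK1N averaged 119 ± 14.1 and 19.4 ± 1.16 CPM in the same groups. BBC3, by contrast, changed by 1.72 in THZ1 and 1.65 in YKL-5-124, and the difference of 0.07 (SE 0.44) did not pass the test.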

How the data were processed

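The 15 RNA sequencing libraries, made from total RNA of PATU-8988T, were put into 5 groups of 3 by their labels. The authors deposited raw counts per gene in 1 table. The submitters' processing notes name the build GRCh38 and the tools featureCounts 1.5.0-p3, DESeq2 1.24.0 and STAR 2.6.1d. The sources used here do not give the strand setting or the treatment of reads with several matches. The table held 58676 genes, and 0 rows named no gene. Depth is given per group in the results; counting intervals and floors cover counting error only.

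Genes passing filterByExpr (minimum count 10, minimum total 15) were 14461, with 99.9% of the counts. All 15 libraries entered 1 fit, with no term but group, in edgeR 4.0.16 (quasi-likelihood test, TMM scaling, R 4.3.3), adjusted by Benjamini-Hochberg over all genes tested, with a threshold of 0.05. CPM used the TMM-scaled totals. Alternatives were RLE, upper-quartile and total scaling, ribosomal protein mRNAs as the reference, DESeq2 1.42.0, no filter, fewer groups in the fit, a replicate block, a length covariate and leaving out each library. Same-numbered THZ1 libraries deviated together (correlations 0.489, 0.184 and 0.184), so the fit with replicate number as a block is given beside the main one as an alternative, although THZ1 24 h replicate 3 correlated better with THZ1 4 h replicate 2 (0.362). Any pairing comes from the data, as the labels state no shared batch. Libraries of a group differed by more than counting noise, with a chi-square of 4.42 to 74.6 for each degree of freedom.

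The comparison and the 36 gene lists were chosen with earlier results of these data known. The genes named were, among protein-coding genes that overlap no other tested gene, the 6 largest changes in each direction and the 3 largest of each course, at a mean of at least 5 CPM and with no overlap between the times. Up to 2 members of each list in each direction at 1 CPM or more were added, with CDK7, CDK12, CDK13, MCL1, MYC, FOS and EGR1. CDKN1A, KRT8, KRT18 and the promoter of FOSB were added after their values were seen. Not all of the 150 genes are printed, and some items are not reported here. On simulated data of 14461 genes for this comparison, the test found 87.9% of simulated 4-fold changes, 55.2% of those of 2-fold and 13.4% of those of 1.5-fold, with 6.31% of its calls false. The simulation changed 66, 67 and 67 genes by these folds and kept all other means alike between the groups. In the data 9709 genes were called, so these rates need not hold for them. Promoters came from RefSeq (GRCh38.p14) and were matched by symbol for 77.7% of tested protein-coding genes.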

Additional observations from a re-analysis of the deposited data

Results flagged for a closer look

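The change between 24 h and 4 h differed between THZ1 and YKL-5-124 for 8331 of 14461 genes by the interaction of compound and time (edgeR's quasi-likelihood test, adjusted p under 0.05). The count was 9475 with library totals and 11559 with the ribosomal protein reference. Differences for single genes were computed on the TMM scale alone. Among the genes named, the difference in log2 change, THZ1 minus YKL-5-124, was 10.19 for EGR4, 8.72 for PLCB1, 8.05 for FCRLB, 7.02 for KLF10, 6.95 for EGR1, 5.27 for FOS, 2.97 for MYC and 0.45 for MCL1. It was −4.93 for NLRP2, −4.73 for VANGL1, −4.35 for NASP, −4.13 for NUP85, −3.80 for PCNA, −3.76 for CDC6, −3.46 for CDK7, −2.78 for CDK12 and −1.06 for CDK13. EGR4 had 1 count in THZ1 4 h, so its value depends on a prior count. For CDK13 and MCL1 the adjusted p was 0.049 and 0.036.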

How the results depend on the processing

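TMM scaling called 9709 genes between THZ1 24 h and THZ1 4 h, and the alternatives called 9062 to 11144, but scaling moved the split. With library totals 2292 genes were higher and 8175 lower, with 434 rebounds, 3307 continued falls, 4778 late falls, 385 continued rises and 90 early rises lost. With the ribosomal protein reference the counts were 754 and 10390, with 268 rebounds, 4492 continued falls, 5888 late falls, 476 late inductions, 10 continued rises and 10 early rises lost. The slope on transcript length as a covariate gave 2520 continued rises and 960 early rises lost. Early rises lost ranged from 210 to 461 when 1 library was left out, and were 210 without THZ1 4 h replicate 3; the cause of these shifts was not tested. With library totals GTF2H3 reversed to −0.23, GTF2H5 to −0.30, FANCF to −0.14, FANCI to −0.31 and MCL1 to −0.27. With the ribosomal protein reference MXI1 was at −0.72, WDR74 −0.30, BID −0.56, HSP90AA1 −0.43, GTF2H3 −1.04, GTF2H5 −1.08, POLR2L −0.16, FOXM1 −0.81, BIRC5 −0.77, FANCF −0.95, FANCI −1.13, ETAA1 −0.0019, PSMD2 −0.0225, ADRM1 −0.13, SCD −0.18, SREBF2 −0.30, SNRPC −0.69, MRPL52 −0.31, MRPL33 −0.32 and MCL1 −1.10. The replicate block gave 4732 higher and 5376 lower, and with it all 150 named genes kept their calls and no count of list members moved by over 1.5 times. Leaving out 1 THZ1 library cost CDK13, DUSP4, FANCF, GTF2H5 and FOXM1 their calls in some fits, and no other named gene. At the depth and spread of these libraries 13.4% of simulated 1.5-fold changes were recovered, in a simulation that changed far fewer genes than were called here.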
